A study of Mus musculus with 15 samples.

Results

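The 10 genes described here belong to the type 1 and cytotoxic program of innate and adaptive lymphocytes: *Tbx21* and *Eomes*, *Ifng*, *Gzma*, *Gzmb* and *Gzmk*, *Prf1* and *Nkg7*, and *Ncr1* and *Klrd1*. They were taken by gene symbol from 2 deposited tables of expression, and each symbol matched 1 row in both. They are 10 of 23846 genes in the table of PBS- and IL-33-injected mice and 10 of 23529 genes in the table of the *Il10* reporter mice. All 10 are reported, whether or not they reached the level needed for a test.

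The 15 libraries came from 6 groups of sorted cells from mice of 6 to 14 weeks, with cells of 5 mice pooled per experiment. The first table held lung type 2 innate lymphoid cells (ILC2) of mice injected with IL-33 once a day for 4 days (ILC2IL-33, n = 2) and of mice injected with PBS (ILC2PBS, n = 3). The methods name C57BL/6 and 10BiTFoxp3GFP mice as sources of lung ILC2 without giving the strain of each library. The second table held 4 groups from IL-33-injected 10BiTFoxp3GFP mice, which carry a Thy-1.1 reporter of *Il10* and a GFP reporter of *Foxp3*: Thy-1.1+ lung ILC2 (ILC210, n = 3), Thy-1.1- lung ILC2 (ILC2act, n = 3), IL-10+ splenic Treg cells (Treg10+, n = 2) and IL-10- splenic Treg cells (Treg10-, n = 2). All 4 of these groups carried both reporters and had received IL-33, so that table holds no PBS control. ILC2 came from lung and Treg cells from spleen, and in a comparison of them cell type and tissue cannot be told apart.

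T-bet (*Tbx21*) and Eomesodermin (*Eomes*) are the T-box transcription factors that direct type 1 lymphocytes, and interferon-gamma (*Ifng*) is the cytokine that defines them. Cytotoxic lymphocytes store granzymes in granules and release them with perforin, which lets them into the target cell. NKp46 (*Ncr1*) and CD94 (*Klrd1*) are receptors of NK cells, and NKp46 also marks ILC1 and a subset of ILC3. ILC2 are known for GATA3 and for the cytokines IL-5 and IL-13, and they are set apart from ILC1 and NK cells by the lack of the T-box program. Effector Treg cells can express T-bet and granzyme B.

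Values are FPKM, fragment counts scaled by transcript length and by library size, so levels of different genes can be set side by side. The number of genes above 1 FPKM ranged from 10527 to 12333 over the libraries of the first table and from 10514 to 12148 over those of the second. *Il10* followed the sort, at 113 to 155 FPKM in ILC210 and 8.91 to 16.0 FPKM in ILC2act, and at 24.2 and 31.0 FPKM in Treg10+ and 0.572 and 1.06 FPKM in Treg10-. *Foxp3* was between 88.4 and 112 FPKM in the 4 Treg libraries and at most 0.0955 FPKM in the 6 ILC2 libraries of that table. *Gata3* was at 89.2 FPKM or more in each ILC2 library of either table. The ILC2 gate left out cells stained for NK1.1, NKp46, CD3ε, CD8α or CD4. RNA of other lung cells nevertheless differed between the groups: the summed level of 5 lung epithelial markers was 209 to 458 FPKM in ILC2IL-33 against 5600 to 24834 FPKM in ILC2PBS, and 6678 to 14404 FPKM in ILC210 against 496 to 954 FPKM in ILC2act. The sum of 5 myeloid markers was 28.8 to 30.1 FPKM in ILC2IL-33 against 1707 to 3510 FPKM in ILC2PBS, and 601 to 1374 FPKM in ILC210 against 48.8 to 77.3 FPKM in ILC2act. In bulk libraries such as these, a change in the share of cells of a type and a change in RNA per cell cannot be told apart. *Ddx3y*, a Y-linked gene, was at 5.47 and 8.25 FPKM in ILC2PBS replicates 1 and 2 and below 0.16 FPKM in ILC2PBS replicate 3 and both ILC2IL-33 libraries.

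Expression of the 10 genes fell into 2 tiers. *Gzma*, *Gzmb*, *Prf1* and *Nkg7*, which encode the contents of the cytotoxic granule, exceeded 1 FPKM in all 15 libraries, except *Prf1* in 1 ILC2IL-33 and 1 ILC2act library. *Tbx21* exceeded 3 FPKM in the 4 Treg libraries and stayed near or below 1 FPKM in ILC2, and *Eomes*, *Ifng*, *Gzmk*, *Ncr1* and *Klrd1* stayed below 3 FPKM in all 15 libraries. The lung ILC2 libraries held *Gzma* at up to 1223 FPKM and *Nkg7* at up to 395 FPKM, with *Tbx21* at no more than 1.10 FPKM.

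**Figure D1:**
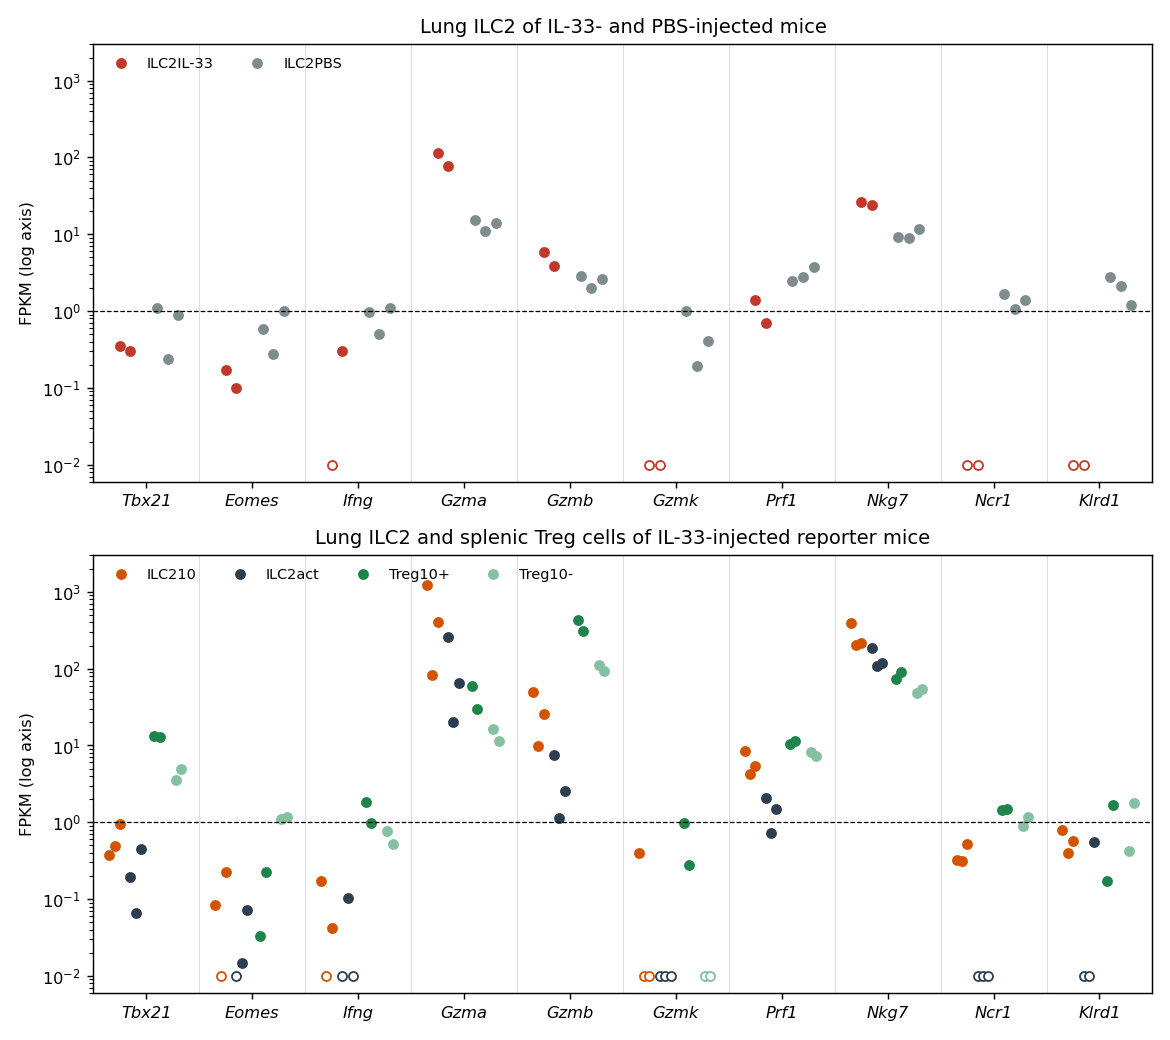
FPKM (log axis) of the 10 type 1 and cytotoxic genes in each library, with 1 point per library. The upper panel has ILC2IL-33 (n = 2) and ILC2PBS (n = 3), the lower panel ILC210, ILC2act (n = 3 each), Treg10+ and Treg10- (n = 2 each). Open points at 0.01 are values below 0.01 FPKM, listed at 0, and the dashed line is the floor of 1 FPKM used in the tests. *Gzma* and *Nkg7* reach their highest levels in ILC210 and *Gzmb* in Treg10+.

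For the tests, values under 1 FPKM were raised to that floor and put on the log2 scale, and a linear model was fitted with limma over all genes of a table that exceeded the floor in enough libraries. A gene is said to have risen or fallen where its Benjamini-Hochberg adjusted p was below 0.05 and the groups differed at least 2-fold. The floor makes changes of genes near 1 FPKM look smaller than they are. The p-values measure the spread between these libraries only.

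In ILC2IL-33 against ILC2PBS, 6 of the 10 genes could be tested. *Gzma* and *Nkg7* rose, *Prf1* fell, and *Gzmb*, *Ncr1* and *Klrd1* did not pass. *Tbx21*, *Eomes*, *Ifng* and *Gzmk* were too low to be tested. Of all 12565 genes tested, 26.3% passed, 8.22% as higher and 18% as lower. The median log2 fold change was 0.26 over the 6 genes and -0.06 over all genes tested. The 2 groups did not overlap in any of the 6, with 3 higher and 3 lower, as was so for 26.7% (higher) and 35.7% (lower) of all genes tested. Among the lower ones, *Ncr1* and *Klrd1* entered the test through the ILC2PBS libraries alone, so their direction was bound to appear. *Prf1*, with ILC2IL-33 replicate 2 at 0.705 FPKM, also met the filter through the ILC2PBS libraries, so its direction was largely set in advance.

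In ILC210 against ILC2act, 4 of the 10 genes could be tested, all of the granule. *Gzmb* and *Prf1* rose, and *Gzma* and *Nkg7* did not pass. *Prf1* met the filter through the ILC210 libraries, with ILC2act replicate 2 at 0.725 FPKM, which favoured a rise. Of 11564 genes tested, 10.3% passed, 9.24% as higher and 1.05% as lower. The median log2 fold change was 2.15 over the 4 genes and 0.03 over all. For 3 of the 4 every ILC210 library exceeded every ILC2act library, against 20.4% of all genes, with 12.3% apart in the other direction.

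In Treg10+ against Treg10-, 8 of the 10 genes could be tested. *Tbx21* and *Gzmb* rose, *Gzma*, *Prf1*, *Nkg7*, *Ncr1*, *Eomes* and *Klrd1* did not pass, and *Ifng* and *Gzmk* were not tested. Here 1.37% of 10837 genes passed, 0.904% as higher and 0.461% as lower, and the medians were 0.59 over the 8 genes and 0.01 over all. Treg10+ lay wholly above Treg10- in 6 of the 8 and wholly below it in *Eomes*, beside 23% and 20% of all genes. *Eomes* entered this test through the Treg10- libraries alone, so its direction was bound to appear.

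Between cell types, ILC210 exceeded Treg10+ in *Nkg7* and lay below it in *Tbx21* and *Gzmb*, with *Gzma*, *Prf1* and *Ncr1* not passing among 6 genes tested. ILC2act exceeded Treg10- in *Nkg7* and lay below it in *Tbx21*, *Gzmb* and *Prf1*, with *Gzma* and *Eomes* not passing among 6. The share of all genes that passed was 19.5% of 12181 in the first of these comparisons (12.3% as higher, 7.2% as lower) and 18.2% of 11308 in the second (8.72% as higher, 9.46% as lower). The groups lay apart in all 6 genes of either comparison, with 2 higher and 4 lower in each. Among the lower ones, *Tbx21* and *Ncr1* in the first and *Tbx21* and *Eomes* in the second entered the test through the Treg libraries alone. For these genes a lower level in ILC2 was bound to appear. For all genes these shares were 31.1% and 29.2% in ILC210 against Treg10+ and 27.9% and 33.9% in ILC2act against Treg10-. These comparisons use the same libraries as the ones within ILC2 and within Treg cells, so their results are not independent of them.

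**Figure D2:**
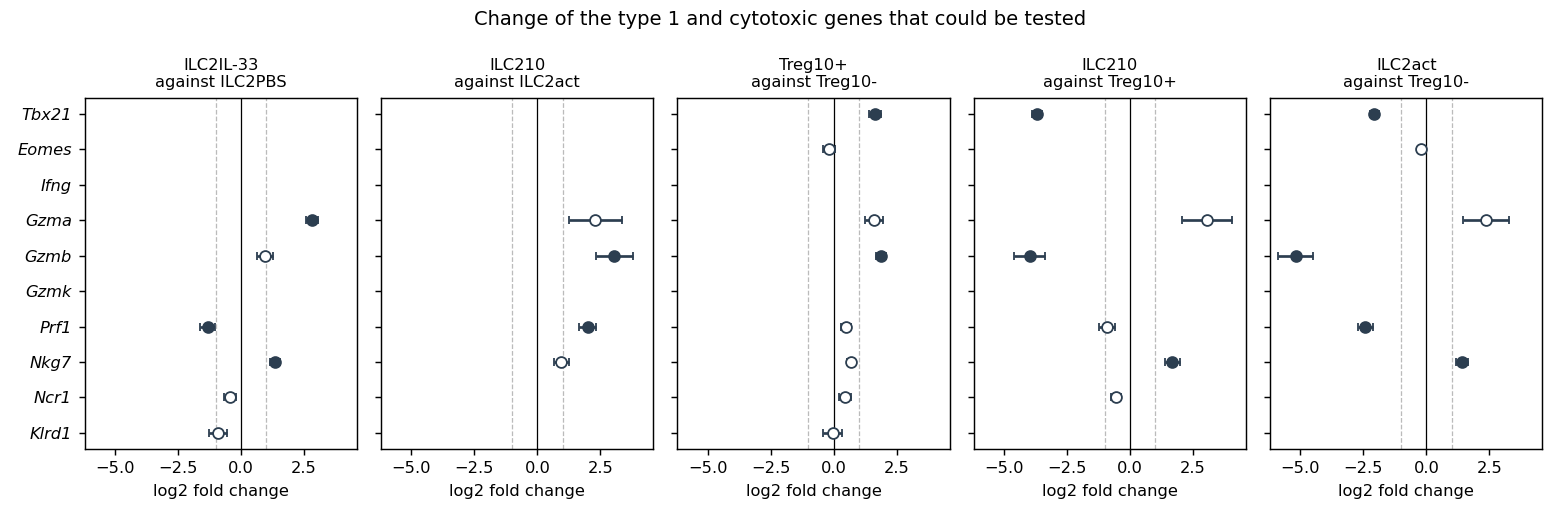
Log2 fold change with its standard error (x axis, bars) of each of the 10 genes that could be tested (y axis) in 5 comparisons, from limma on floored log2 FPKM. Filled points are genes that rose or fell by the test, open points are the others, and dashed lines mark a 2-fold difference. *Gzmb* is higher in ILC210 than in ILC2act (3.05) and higher in Treg10+ than in Treg10- (1.86), and far lower in both ILC2 groups than in the Treg groups.

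*Gzma* encodes granzyme A, a tryptase of the granule. It was at 114 and 78.4 FPKM in ILC2IL-33, against 15.3, 11.1 and 14.03 FPKM in ILC2PBS. Both IL-33 libraries lay far above all 3 PBS libraries, by a log2 fold change of 2.82 ± 0.23 (SE, limma adjusted p = 1.2e-04). It passed without any 1 library (adjusted p = 4.6e-04 to 0.0235), while against ILC2PBS replicate 3 alone, the PBS library without *Ddx3y*, the log2 fold change was 2.75 (adjusted p = 0.0905).

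In the reporter mice *Gzma* was the most variable of the 4 granule genes within the ILC2 groups. It was at 1223, 82.6 and 405 FPKM in ILC210 replicates 1, 2 and 3, against 258, 20.5 and 65.8 FPKM in ILC2act replicates 1, 2 and 3. The highest ILC210 library exceeded the lowest 14.8-fold, and the highest ILC2act library exceeded the lowest 12.6-fold, so that the groups overlapped. Replicate 2, the pair whose titles carry the tag 10Bit26 in place of 10Bit22, was the lowest in both groups and replicate 1 the highest. Within the pairs of libraries that carry consecutive numbers in their titles, ILC210 exceeded ILC2act 4.75-fold, 4.04-fold and 6.15-fold. The log2 fold change of 2.29 ± 1.06 (SE) did not pass without pairing (limma adjusted p = 0.205) and passed with the pair as a block (SE 0.11, adjusted p = 1.7e-06). With the block, 3 of the 4 granule genes tested passed as higher, beside 9.83% of all genes. In splenic Treg cells *Gzma* was at 58.8 and 29.5 FPKM in Treg10+, against 16.6 and 11.4 FPKM in Treg10-. Both Treg10+ libraries were the higher, but the log2 fold change of 1.60 ± 0.34 (SE) did not pass without pairing (limma adjusted p = 0.0935) and passed with the pair as a block (SE 0.13, adjusted p = 2.4e-06), as did 2.87% of all genes in that direction.

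*Gzmb* encodes granzyme B, the granule protease that cleaves after aspartate and activates caspases. It was at 5.91 and 3.81 FPKM in ILC2IL-33, against 2.88, 1.99 and 2.64 FPKM in ILC2PBS. The 2 groups lay close without overlap. A log2 fold change of 0.94 ± 0.31 (SE) missed the threshold (limma adjusted p = 0.0502) and passed when library medians were made equal (1.12, adjusted p = 0.0299) or the libraries were quantile normalized (1.47, adjusted p = 0.0170).

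In the reporter mice *Gzmb* was at 50.3, 9.80 and 25.4 FPKM in ILC210, against 7.56, 1.15 and 2.53 FPKM in ILC2act. Every ILC210 library lay above every ILC2act library, and replicates 1, 3 and 2 stood in the same order in both groups. The pairs differed 6.65-fold, 8.53-fold and 10.0-fold. Over the groups the log2 fold change was 3.05 ± 0.72 (SE, limma adjusted p = 0.0207). That call was lost without ILC210 replicate 1 (adjusted p = 0.0762), ILC210 replicate 3 (0.106), ILC2act replicate 2 (0.0784) or ILC2act replicate 3 (0.0791). It was also lost in 2 of 9 other settings, without a filter and by the equal-variance test. In Treg cells *Gzmb* was at 435 and 309 FPKM in Treg10+, against 110 and 92.7 FPKM in Treg10-. Both Treg10+ libraries were far above both Treg10- libraries, with a log2 fold change of 1.86 ± 0.20 (SE, limma adjusted p = 0.0136), which no fit with 3 of the 4 libraries called (adjusted p = 0.246 to 0.446).

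**Figure D3:**
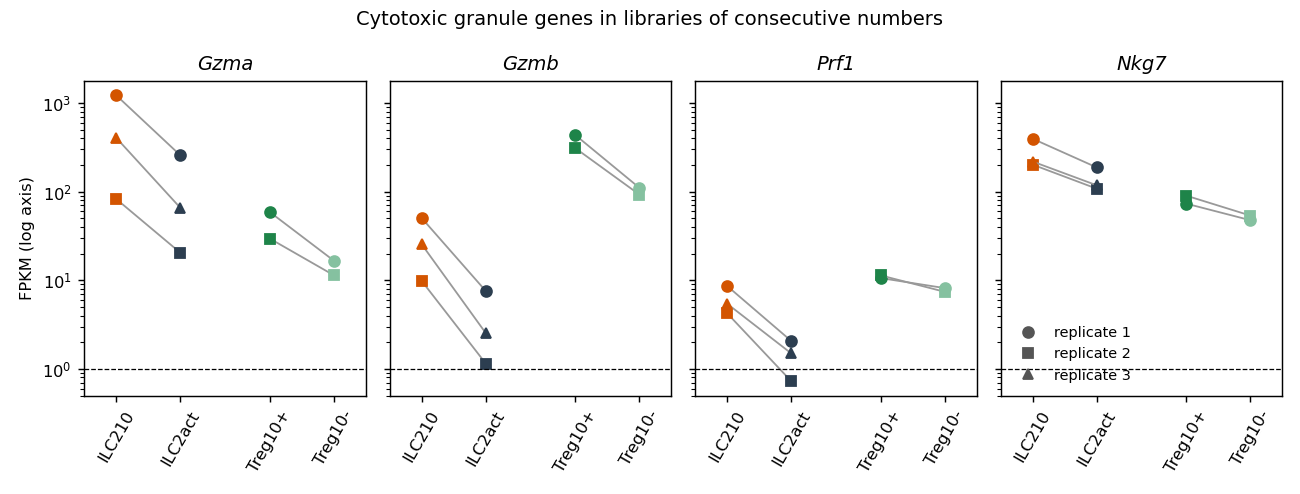
FPKM (log axis) of *Gzma*, *Gzmb*, *Prf1* and *Nkg7* in ILC210 and ILC2act (n = 3 each) and in Treg10+ and Treg10- (n = 2 each). Lines join libraries of consecutive numbers, marker shapes give the replicate, and the dashed line is 1 FPKM. Every line falls from the IL-10+ to the IL-10- library, with *Gzma* 4.04- to 6.15-fold and *Nkg7* 1.85- to 2.11-fold apart within the ILC2 pairs.

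The ratio of the 2 granzymes went opposite ways in the cell types. *Gzma* exceeded *Gzmb* 24.3-, 8.43- and 15.9-fold in the ILC210 libraries and 34.1-, 17.8- and 26.01-fold in the ILC2act libraries. *Gzmb* instead exceeded *Gzma* 7.40- and 10.5-fold in Treg10+ and 6.65- and 8.14-fold in Treg10-. In the first table *Gzma* exceeded *Gzmb* 19.3- and 20.6-fold in ILC2IL-33 and 5.32- to 5.55-fold in ILC2PBS. The log2 fold change of *Gzmb* was -3.98 ± 0.60 (SE, limma adjusted p = 0.00279) in ILC210 against Treg10+ and -5.17 ± 0.69 (SE, adjusted p = 0.00128) in ILC2act against Treg10-. Both calls were lost without either Treg library (adjusted p = 0.0965 and 0.121 in ILC210 against Treg10+, and 0.0780 and 0.0908 in ILC2act against Treg10-). For *Gzma* the log2 fold change was 3.05 ± 1.00 (SE, limma adjusted p = 0.0569) in ILC210 against Treg10+ and 2.35 ± 0.92 (SE, adjusted p = 0.0853) in ILC2act against Treg10-, neither of which passed. In ILC210 against Treg10+ it passed in 5 of 8 other settings (adjusted p = 0.0267 at the lowest and 0.463 at the highest of the 8), and in ILC2act against Treg10- in 1 of 8. Without the lowest ILC2 library of each group they passed, at 4.08 (adjusted p = 0.00593, without ILC210 replicate 2) and 3.24 (adjusted p = 0.0141, without ILC2act replicate 2).

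**Figure D4:**
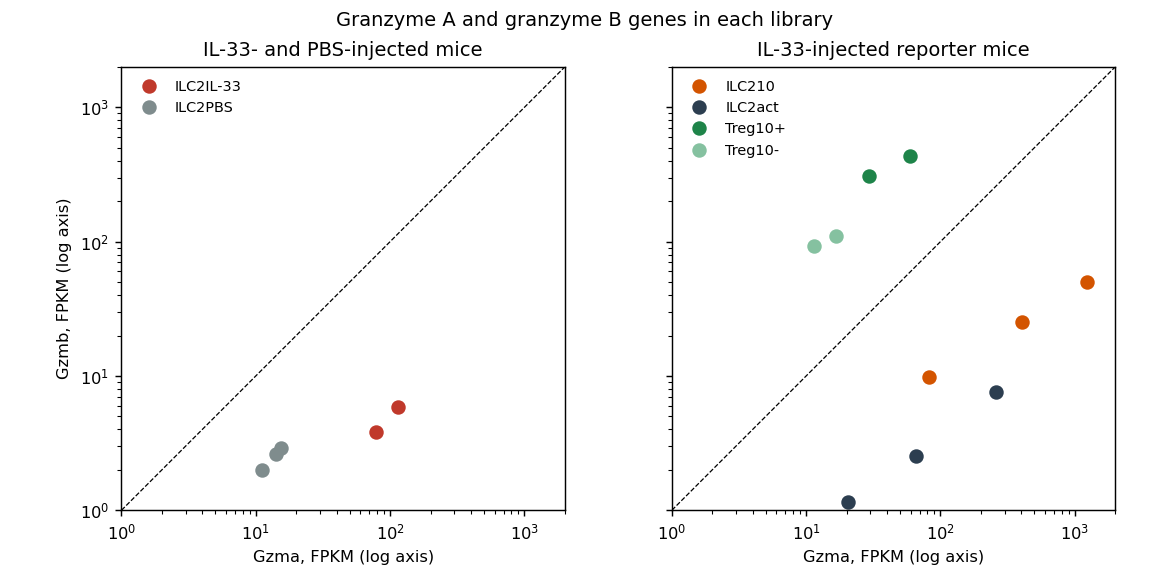
FPKM of *Gzmb* (y axis) against *Gzma* (x axis), both on log axes, with 1 point per library: ILC2IL-33 and ILC2PBS on the left, ILC210, ILC2act, Treg10+ and Treg10- on the right. The dashed line marks equal levels. The 11 ILC2 libraries lie below it and the 4 Treg libraries above it.

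*Gzmk*, the gene of granzyme K, lies 70.9 kb from *Gzma* on chromosome 13 and did not share its levels. It was listed at 0 in both ILC2IL-33 libraries and at 0.989, 0.190 and 0.409 FPKM in ILC2PBS. In the reporter mice it was at 0.395 FPKM in ILC210 replicate 1 and listed at 0 in the other 2 ILC210 libraries and in all ILC2act libraries. In Treg10+ it was at 0.977 and 0.280 FPKM, and it was listed at 0 in both Treg10- libraries. It was tested in no comparison.

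*Prf1* encodes perforin. It was at 1.39 and 0.705 FPKM in ILC2IL-33, against 2.45, 2.79 and 3.75 FPKM in ILC2PBS. Both IL-33 libraries lay below all PBS libraries, a direction opposite to that of *Gzma* and *Nkg7*, with a log2 fold change of -1.32 ± 0.29 (SE, limma adjusted p = 0.0107). With ILC2IL-33 replicate 2 under the floor, *Prf1* met the filter through the ILC2PBS libraries, so a fall was largely set in advance. It passed in neither fit without 1 of the IL-33 libraries (adjusted p = 0.0631 without replicate 1 and 0.112 without replicate 2), and it was lost in 5 of 7 other settings: quantile normalization (-0.57, adjusted p = 0.271), no filter (adjusted p = 0.0728), the equal-variance test (adjusted p = 0.138), ILC2PBS replicate 3 alone as the control (adjusted p = 0.131), and 1 added to FPKM, where the fold was under 2 (-0.97, adjusted p = 0.0150).

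In the reporter mice *Prf1* was at 8.59, 4.23 and 5.42 FPKM in ILC210, against 2.06, 0.725 and 1.49 FPKM in ILC2act. All ILC210 libraries lay above all ILC2act libraries, and the pairs differed 4.17-fold, 4.23-fold and 3.63-fold with the ILC2act library under 1 FPKM set to 1. *Prf1* rose by a log2 fold change of 2.00 ± 0.33 (SE, limma adjusted p = 0.00345), and it passed without any 1 library (adjusted p = 0.00448 to 0.0214). The call was lost in 2 of 8 other settings, without a filter and by the equal-variance test. With an ILC2act library under 1 FPKM, *Prf1* met the filter through the ILC210 libraries, which favoured a rise. *Prf1* was at 10.6 and 11.3 FPKM in Treg10+, against 8.15 and 7.40 FPKM in Treg10-. Treg10+ was the higher, though the log2 fold change was 0.50 ± 0.20 (SE, limma adjusted p = 0.335). Across cell types ILC210 replicate 1 exceeded both Treg10- libraries, while ILC210 replicates 2 and 3 lay below both, a difference that was not tested. ILC2act lay below Treg10- by a log2 fold change of -2.42 ± 0.31 (SE, limma adjusted p = 0.00104). Without Treg10- replicate 1 or 2 this call was lost (adjusted p = 0.0669 and 0.0570). ILC210 was below Treg10+ with a log2 fold change of -0.91 ± 0.30 (SE, limma adjusted p = 0.0603), which did not pass.

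*Nkg7* encodes a membrane protein of the granule that is needed for its release. It was at 26.6 and 24.3 FPKM in ILC2IL-33, against 9.34, 9.01 and 11.7 FPKM in ILC2PBS. The groups were well apart, with a log2 fold change of 1.36 ± 0.20 (SE, limma adjusted p = 0.00169) that just missed the threshold without ILC2IL-33 replicate 1 (1.29, adjusted p = 0.0513). Against ILC2PBS replicate 3 alone the log2 fold change was 1.12 (adjusted p = 0.0839).

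In the reporter mice *Nkg7* was at 395, 202 and 218 FPKM in ILC210, against 188, 108 and 118 FPKM in ILC2act. No ILC2act library reached the lowest of ILC210, replicate 1 was the highest in both, and the pairs differed 2.11-fold, 1.87-fold and 1.85-fold. A log2 fold change of 0.95 ± 0.28 (SE, limma adjusted p = 0.0513) did not pass, and with the pair as a block it stayed below a fold of 2 (adjusted p = 2.3e-05). It passed without ILC210 replicate 2 (1.14, adjusted p = 0.0488) or ILC2act replicate 1 (1.20, adjusted p = 0.0254). *Nkg7* was at 73.2 and 90.0 FPKM in Treg10+, against 47.6 and 53.7 FPKM in Treg10-. Both Treg10+ libraries were above both Treg10- libraries, but the log2 fold change of 0.68 ± 0.15 (SE, limma adjusted p = 0.103) did not pass. *Nkg7* was the only member for which each ILC2 group passed as higher than its Treg counterpart, by a log2 fold change of 1.67 ± 0.29 (SE, limma adjusted p = 0.00493) in ILC210 against Treg10+ and 1.40 ± 0.23 (SE, adjusted p = 0.00354) in ILC2act against Treg10-. Both calls were lost without either Treg library (adjusted p = 0.104 and 0.141 in ILC210 against Treg10+, and 0.0932 and 0.123 in ILC2act against Treg10-).

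The 4 granule genes lie on 4 chromosomes, with *Gzma* at chr13:113093827-113100981, *Gzmb* at chr14:56258858-56262260, *Prf1* at chr10:61297836-61304263 and *Nkg7* at chr7:43437138-43438246 in GRCm38. Since they were higher in ILC210 than in ILC2act within every pair, the 250 bases before the start of each are shown for comparison, 5′ to 3′ on the strand of the gene. The sequences are those of RefSeq for GRCm38.p6, which gave a window for 9 of the 10 genes. For *Gzmb*, on the minus strand, RefSeq places the start at 56262334, outside the locus given above. Its window and the positions of its matches are counted from that RefSeq start. Capitals mark a T-box core (GTGTGA or its reverse complement TCACAC) or a RUNX core (TGTGGT or its reverse complement ACCACA), the letters read by T-bet and Eomesodermin and by RUNX factors.
Gzma promoter, chr13:113100982-113101231 (minus strand): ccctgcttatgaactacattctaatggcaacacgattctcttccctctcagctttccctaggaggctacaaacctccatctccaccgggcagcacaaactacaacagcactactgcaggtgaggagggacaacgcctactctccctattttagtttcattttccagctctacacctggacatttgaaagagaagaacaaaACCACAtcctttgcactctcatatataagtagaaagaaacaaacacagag
Gzmb promoter, chr14:56262335-56262584 (minus strand): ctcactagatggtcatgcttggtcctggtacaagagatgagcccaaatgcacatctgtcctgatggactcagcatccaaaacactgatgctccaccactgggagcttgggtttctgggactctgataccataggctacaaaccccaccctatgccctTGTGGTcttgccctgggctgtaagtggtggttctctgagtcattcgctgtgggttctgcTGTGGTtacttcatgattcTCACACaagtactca
Prf1 promoter, chr10:61297586-61297835 (plus strand): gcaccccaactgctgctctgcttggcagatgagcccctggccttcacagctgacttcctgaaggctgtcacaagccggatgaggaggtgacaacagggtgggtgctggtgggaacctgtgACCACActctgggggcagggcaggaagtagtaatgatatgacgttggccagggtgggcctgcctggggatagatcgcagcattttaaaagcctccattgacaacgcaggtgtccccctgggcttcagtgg
Nkg7 promoter, chr7:43436888-43437137 (plus strand): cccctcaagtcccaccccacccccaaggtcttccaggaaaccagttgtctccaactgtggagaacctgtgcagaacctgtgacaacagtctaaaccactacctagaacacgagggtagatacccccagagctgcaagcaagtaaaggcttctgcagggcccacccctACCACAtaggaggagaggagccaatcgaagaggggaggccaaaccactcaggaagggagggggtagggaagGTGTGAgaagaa

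The RUNX core was found in each of these 4 windows, once in *Gzma*, *Prf1* and *Nkg7* and at 2 places in *Gzmb*. Over all 32851 promoter windows of the same length, 14% held it on either strand. The T-box core was found in *Gzmb*, 15 to 10 bases before the start, and in *Nkg7*, 12 to 7 bases before it, and not in *Gzma* or *Prf1*, with 12.3% of all windows holding it. None of the marked matches overlapped another. Among the other 5 windows, *Gzmk* held 2 T-box cores, *Ncr1* held a T-box core and 2 RUNX cores, and *Tbx21*, *Eomes* and *Ifng* held neither. The GATA core AGATAA (reverse complement TTATCT), present in 9.99% of all windows, was in none of the 9. A match of 6 letters is a description of the sequence and no evidence of binding.

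*Tbx21* separated Treg cells from ILC2. It was at 13.1 and 12.8 FPKM in Treg10+, against 3.55 and 4.87 FPKM in Treg10-. The groups were well apart, with a log2 fold change of 1.64 ± 0.24 (SE, limma adjusted p = 0.0387). Like *Gzmb*, it was called in no fit with 3 of the 4 libraries (adjusted p = 0.221 to 0.457).

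In ILC2 *Tbx21* was at 0.372, 0.484 and 0.957 FPKM in ILC210, against 0.193, 0.0659 and 0.445 FPKM in ILC2act. All 6 libraries were under 1 FPKM and the groups overlapped. Set against Treg cells, the log2 fold change was -3.70 ± 0.20 (SE, limma adjusted p = 3.1e-05) in ILC210 against Treg10+ and -2.06 ± 0.19 (SE, adjusted p = 2.6e-04) in ILC2act against Treg10-, and both passed without any 1 library (highest adjusted p = 0.00769). *Tbx21* entered these tests through the Treg libraries alone, so a difference was bound to appear. In the first table *Tbx21* was at 0.351 and 0.299 FPKM in ILC2IL-33, against 1.10, 0.239 and 0.900 FPKM in ILC2PBS. The IL-33 libraries lay within the range of the PBS libraries.

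The change of each gene with IL-10 production was compared between ILC2 and Treg cells in a fit of the 10 libraries of reporter mice. Of all 12475 genes tested 8.1% passed (6.53% with a positive and 1.56% with a negative difference), and 8 of the 10 members were tested. For *Tbx21* the floored fit allowed no comparison, since all 6 ILC2 libraries were set to the floor, which fixed the ILC2 change at 0. For *Prf1* the difference was 1.503 ± 0.48 (SE, limma adjusted p = 0.0923), with the ILC2 change the larger, and it passed without ILC2act replicate 1 (1.75, adjusted p = 0.0478). For *Gzmb* the difference was 1.19 ± 1.07 (SE, limma adjusted p = 0.644), for *Gzma* 0.69 ± 1.60 (SE, adjusted p = 0.886) and for *Nkg7* 0.27 ± 0.42 (SE, adjusted p = 0.816). With the pairs as a block, *Prf1* (SE 0.21, limma adjusted p = 0.00551) and *Gzmb* (SE 0.19, adjusted p = 0.00860) passed, beside 7.35% of all genes with a positive difference, whereas *Gzma* (adjusted p = 0.0772) and *Nkg7* (adjusted p = 0.123) did not. Of the main and the blocked fit of all 10 libraries, only the blocked one called *Prf1* and *Gzmb* as changing more in ILC2 than in Treg cells.

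*Eomes* was low in every library. It was at 0.0333 and 0.223 FPKM in Treg10+, against 1.12 and 1.18 FPKM in Treg10-, the opposite order to *Tbx21*. Both Treg10+ libraries were the lower, but on the floored scale the log2 fold change was -0.20 ± 0.24 (SE, limma adjusted p = 0.796). In ILC2 the highest value was 0.225 FPKM in ILC210 against 0.0711 FPKM in ILC2act, and 0.169 FPKM in ILC2IL-33 against 1.01 FPKM in ILC2PBS.

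*Ifng* was at 1.83 and 0.987 FPKM in Treg10+, against 0.768 and 0.516 FPKM in Treg10-. The Treg10+ libraries were the higher, and only 1 of the 4 exceeded 1 FPKM. In ILC2 of the reporter mice it was at 0.174, 0 and 0.0414 FPKM in ILC210, against 0, 0.103 and 0 FPKM in ILC2act. In the first table it was listed at 0 in ILC2IL-33 replicate 1 and at 0.300 FPKM in replicate 2, against 0.968, 0.503 and 1.08 FPKM in ILC2PBS. Every IL-33 library lay below every PBS library at these low levels, and *Ifng* was tested in neither table.

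*Ncr1*, the gene of NKp46, was listed at 0 in both ILC2IL-33 libraries, against 1.65, 1.07 and 1.39 FPKM in ILC2PBS. The PBS libraries were all the higher, but on the floored scale it did not pass (limma adjusted p = 0.222). It was at 0.324, 0.312 and 0.528 FPKM in ILC210 and listed at 0 in all 3 ILC2act libraries, below the floor in all 6. In Treg cells *Ncr1* was at 1.46 and 1.49 FPKM in Treg10+, against 0.891 and 1.17 FPKM in Treg10-. The log2 fold change there was 0.45 ± 0.25 (SE, limma adjusted p = 0.496).

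*Klrd1*, the gene of CD94, was likewise listed at 0 in both ILC2IL-33 libraries, against 2.73, 2.11 and 1.18 FPKM in ILC2PBS. It did not pass on the floored scale (limma adjusted p = 0.0887), but did so without ILC2PBS replicate 3, the lowest PBS library (adjusted p = 0.00630). *Ncr1* and *Klrd1* both passed as lower when 1 was added to FPKM in place of the floor (adjusted p = 0.00187 and 0.00179). Both genes entered these tests through the ILC2PBS libraries alone. In the reporter mice *Klrd1* was at 0.790, 0.395 and 0.565 FPKM in ILC210, against 0.555 FPKM in ILC2act replicate 3 and 0 in the other 2 ILC2act libraries. In Treg cells it was at 0.174 and 1.66 FPKM in Treg10+, against 0.423 and 1.76 FPKM in Treg10-, with the spread within each group larger than any difference between them.

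The summed level of markers of NK cells and ILC1 also differed between the groups. The summed level of 11 such markers, which include *Ncr1*, *Tbx21* and *Eomes*, was 4.04 to 5.12 FPKM in ILC2IL-33, with *Ncr1*, *Klra8*, *Klra4* and *Klra7* at 0, against 24.7 to 31.1 FPKM in ILC2PBS with none at 0. It was 14.4 to 17.4 FPKM in ILC210 with *Klra4* at 0, against 3.98 to 7.04 FPKM in ILC2act with *Klra4*, *Klra7*, *Klra8* and *Ncr1* at 0. *Itga1*, an integrin gene on that list, made up 14.2 to 21.6 FPKM of the sum in ILC2PBS and 6.07 to 7.76 FPKM in ILC210. *Itga2*, another integrin gene on it, made up 5.16 to 6.60 FPKM in ILC210 and 2.72 to 5.08 FPKM in ILC2act. In the first table *Itga2* made up 2.54 to 3.48 FPKM in ILC2IL-33 and 1.91 to 3.29 FPKM in ILC2PBS. In Treg cells the sum was 24.1 to 26.5 FPKM in Treg10+ with none at 0, against 11.7 to 16.1 FPKM in Treg10- with *Klra8* at 0. Of that sum, *Tbx21*, itself a member, made up 12.8 to 13.1 FPKM in Treg10+ and 3.55 to 4.87 FPKM in Treg10-. *Itga2* made up 6.60 to 7.20 FPKM in Treg10+ and 4.09 to 4.85 FPKM in Treg10-. *Cd8b1*, of CD8 T cells, was at 12.8 to 16.3 FPKM in Treg10+ and 14.4 to 14.8 FPKM in Treg10-. *Cd8a*, another CD8 T cell marker, was far lower, at 0.437 to 0.884 FPKM in Treg10+ and 1.01 to 1.03 FPKM in Treg10-. The sum of 5 myeloid markers was 143 to 188 FPKM in Treg10+ against 32.4 to 64.3 FPKM in Treg10-, and that of 4 B cell markers 282 to 355 FPKM in Treg10+ against 144 to 242 FPKM in Treg10-. The part of other cells in the levels of the 10 genes was not tested in any comparison. The sums of NK and ILC1, epithelial and myeloid markers were lower in ILC2IL-33 than in ILC2PBS and higher in ILC210 than in ILC2act. Group means of *Prf1*, *Tbx21*, *Eomes*, *Ifng*, *Gzmk*, *Ncr1* and *Klrd1* had the same directions, and of these only *Prf1* passed in the main fits. *Gzma*, *Nkg7* and, without passing, *Gzmb* were higher in ILC2IL-33, and all of these were higher within every pair in ILC210.

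In the order of group means of the second table, *Gzmb* ran from Treg10+ through Treg10- and ILC210 to ILC2act, with no overlap between neighbours. *Nkg7* ran from ILC210 through ILC2act and Treg10+ to Treg10-, also without overlap. *Gzma* stood in the same order as *Nkg7*, with overlap between ILC210 and ILC2act and between ILC2act and Treg10+. *Prf1* stood in the order of *Gzmb*, with Treg10- and ILC210 overlapping. *Tbx21* and *Ifng* shared that order too, with the ILC2 groups overlapping at both. *Ncr1* also stood in it, without overlap between neighbours, at group means of 1.47 FPKM or less.

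Genes with a pattern most like that of the highest member were named as a description. In the first table *Gzma* was matched most closely by *Pycard* (Pearson r = 0.999), *Dgat1* (0.9987) and *Mrps9* (0.9985) over 5 libraries and 12559 genes. *Pycard*, the adaptor of the inflammasome, was at 84.7 and 70.0 FPKM in ILC2IL-33, against 21.8, 16.3 and 19.8 FPKM in ILC2PBS. In the second table *Nkg7* was matched by *Chtf18* (r = 0.9743), *Mcm3* (0.9733) and *Osgin1* (0.9729) over 10 libraries and 12467 genes. *Mcm3*, a subunit of the replicative helicase, was at 146, 120 and 117 FPKM in ILC210, against 121, 92.1 and 103 FPKM in ILC2act, and at 75.1 and 84.9 FPKM in Treg10+, against 53.4 and 65.2 FPKM in Treg10-. The points fall into the groups compared, so these coefficients reflect the steps between groups.

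The rest of the pathway was taken from 5 lists with 83 genes. Of 7 further granzymes none was tested in ILC2IL-33 against ILC2PBS or in ILC210 against ILC2act, and 2 were tested in Treg10+ against Treg10- without passing. *Gzmc* was at 15.7 and 11.8 FPKM in Treg10+ and 11.99 and 10.98 FPKM in Treg10-, and at most 2.15 FPKM in ILC210 and 0.282 FPKM in ILC2act. It was lower in ILC210 than in Treg10+ by a log2 fold change of -3.40 ± 0.38 (SE, limma adjusted p = 7.4e-04). *Gzmc* met the filter through the Treg10+ libraries, with a median of 0.740 FPKM in ILC210, so this direction was largely set in advance. *Gzmc* lies with *Gzmb* in the granzyme B cluster.

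Of 14 genes of the granule and of death ligands, 13 were tested in ILC2IL-33 against ILC2PBS, where 2 rose and 3 fell (median log2 fold change 0.44). *Stx11*, a syntaxin of granule fusion, rose by 1.75 ± 0.20 and *Cst7*, the cathepsin inhibitor cystatin F, by 1.31 ± 0.18, while *Serpinb9*, the inhibitor of granzyme B, fell by 1.62 ± 0.18, *Lamp1* fell by 1.30 ± 0.20 and *Ctsc*, the protease that activates granzymes, fell by 1.03 ± 0.22 (SE, limma adjusted p = 0.00973 at most). In ILC210 against ILC2act none of the 13 tested passed (median 0.09), with or without the pair as a block, while the granule members *Gzmb* and *Prf1* did. *Ctsw*, a cathepsin of cytotoxic cells, was at 72.6, 54.3 and 57.9 FPKM in ILC210, against 94.6, 76.0 and 73.1 FPKM in ILC2act, and at 6.71 and 4.92 FPKM in Treg10+, against 12.9 and 13.0 FPKM in Treg10-. *Fasl* ran the other way between cell types, lower in ILC210 than in Treg10+ with a log2 fold change of -1.74 ± 0.23 (SE, limma adjusted p = 0.00152). Like *Gzmc*, *Fasl* met the filter through the Treg10+ libraries, with a median of 0.909 FPKM in ILC210. In Treg10+ against Treg10- none of the 14 passed.

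Of 27 NK cell receptor genes, 10 were tested in ILC2IL-33 against ILC2PBS, where 3 rose and 4 fell (median 0.03). *Klrg1*, which ILC2 also carry, was at 414 and 307 FPKM in ILC2IL-33, against 91.0, 77.9 and 49.8 FPKM in ILC2PBS, and *Klrb1b* rose by 1.98 ± 0.25 (SE, limma adjusted p = 7.2e-04). The adaptor gene *Tyrobp* fell by 5.07 ± 0.26 and *Itga1* fell by 4.09 ± 0.27 (SE, limma adjusted p = 4.5e-05 and 6.3e-05), and myeloid cells express *Tyrobp* too. *Itga1* entered that test through the ILC2PBS libraries alone, so a fall was bound to appear. In ILC210 against ILC2act 4 of 11 rose and 1 fell (median 0.33). Those that rose were *Tyrobp*, *Itga1*, *Fcer1g* and *Cd244*, and *Cd226* fell by 1.05 ± 0.15 (SE, limma adjusted p = 0.00132). Here *Itga1* entered the test through the ILC210 libraries alone, so a rise was bound to appear. In Treg10+ against Treg10-, 1 of 11 rose (*Tyrobp*, where the sum of myeloid markers was also the higher) and 1 fell (*Cd160*), with a median of 0.26.

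Of 20 type 1 cytokine and receptor genes, 17 were tested in ILC210 against ILC2act, where none rose and 4 fell (median -0.30). *Tnf* was at 0.576, 1.14 and 3.15 FPKM in ILC210, against 23.2, 39.8 and 53.5 FPKM in ILC2act, a log2 fold change of -4.58 ± 0.45 (SE, limma adjusted p = 1.7e-04). *Csf2*, *Lta* and *Il18rap* fell with it. *Gzmb* and *Prf1* rose in the same libraries in which *Tnf* and *Lta*, genes of type 1 effector cytokines, fell. In ILC2IL-33 against ILC2PBS 3 of 19 rose and 5 fell (median -0.34), with *Il18rap*, a subunit of the IL-18 receptor, higher by 1.52 ± 0.38 (SE, limma adjusted p = 0.0175) and *Ccl3* falling by 3.44 ± 0.35 (SE, adjusted p = 2.8e-04). *Ccl3* entered that test through the ILC2PBS libraries alone, so a fall was bound to appear. In Treg10+ against Treg10- *Ccl5* and *Cxcr3* rose and none fell among 16 (median 0.14). *Cxcr3*, a chemokine receptor of type 1 cells that T-bet induces, was at 141 and 147 FPKM in Treg10+, against 60.2 and 70.5 FPKM in Treg10-, and at most 0.393 FPKM in ILC210 and ILC2act.

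Of 15 type 1 transcription factor genes, 14 were in the tables. In ILC210 against ILC2act 3 of 14 rose and none fell (median -0.04). *Irf1* was at 105, 94.8 and 94.2 FPKM in ILC210, against 55.3, 40.3 and 38.6 FPKM in ILC2act (log2 fold change 1.15 ± 0.14, SE, limma adjusted p = 5.7e-04), and *Hlx* and *Irf8* rose with it. *Hlx* entered that test through the ILC210 libraries alone, so a rise was bound to appear. In ILC2IL-33 against ILC2PBS 3 of 14 rose and 2 fell (median 0.27), with *Hlx* falling by 2.91 ± 0.31 (SE, limma adjusted p = 3.3e-04). There *Hlx* entered the test through the ILC2PBS libraries alone, so a fall was bound to appear. In Treg10+ against Treg10- *Prdm1* and *Id2* rose and none fell among 12 (median 0.37). *Runx3* was at 33.1, 27.5 and 30.8 FPKM in ILC210, against 29.8, 35.0 and 31.9 FPKM in ILC2act, and did not pass there. It encodes a RUNX factor of cytotoxic lymphocytes and was chosen after its values were seen.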

How the data were processed

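The 15 libraries were grouped by their sample titles. The authors aligned reads to GRCm38 with TopHat2 2.1.0 and GENCODE M9 and deposited FPKM per gene from Cufflinks 2.2.1, in separate tables for the PBS and IL-33 libraries (Ion Proton) and the reporter libraries (NextSeq), each analysed by itself. Zeros of the reporter mice's values had been written as 0.001, and 317 genes lacking an estimate in some library were left out. FPKM carry no counts, so the read depth of each library is not known directly. A relative depth estimated from low values differed up to 2.75-fold between the reporter libraries, with Treg10+ replicate 1 the lowest. Between the PBS and IL-33 libraries it differed up to 1.34-fold.

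Floored log2 FPKM were fitted in limma 3.58.1 (R 4.3.3, lmFit and eBayes, trend = TRUE). The filter required more than 1 FPKM in as many libraries as the smaller group has, and p-values were adjusted over every gene passing it. Consecutive library numbers in the titles were checked for pairing. Deviations from group means correlated at 0.345, 0.299 and 0.187 across genes in the 3 ILC2 pairs. In Treg cells the value was 0.385 for both pairs. With 2 libraries per group these 2 values are equal by construction, so they count as 1. Titles within each Treg pair also share a stem, and the pair was used as a block beside the main fit. The fits were tested on simulated data.

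The members and lists were chosen with earlier results of these data known. By rule, all 10 members are named, and from each list up to 4 genes of largest change that passed in a comparison and up to 2 of highest mean that did not. Other list genes complete counts of 5 or fewer. Of the list genes, *Zfp683* had no match, and another gene was taken off its list and is not reported here. Promoter windows were matched by symbol. Other steps used Python 3.11.15. Alternatives were other pseudocounts, filters and scalings, an equal-variance test, the block, a joint fit of the 10 NextSeq libraries and each library left out.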

Additional observations from a re-analysis of the deposited data

Results flagged for a closer look

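The change of *Tbx21* with IL-10 production was compared between ILC2 and Treg cells. The log2 fold change of ILC210 against ILC2act minus that of Treg10+ against Treg10- was -1.64 ± 0.25 (SE, limma adjusted p = 0.00226). The level was 0.372, 0.484 and 0.957 FPKM in ILC210 against 0.193, 0.0659 and 0.445 FPKM in ILC2act, and 13.1 and 12.8 FPKM in Treg10+ against 3.55 and 4.87 FPKM in Treg10-. All ILC2 values were set to the floor of 1 FPKM, which fixed the ILC2 change at 0, so the value is the Treg change with its sign turned and shows no difference between the cell types. With 1 added to FPKM in place of the floor the difference was -1.06 (limma adjusted p = 0.0443), and with 0.1 added it was -0.46 (adjusted p = 0.812).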

How the results depend on the processing

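No member reversed its direction past the threshold in any alternative: of the members' fold changes refitted, 442 kept their side of the threshold, 49 lost the call and 27 gained it. Counts of members that passed were set against 3 in ILC2IL-33 against ILC2PBS, 2 in ILC210 against ILC2act, 2 in Treg10+ against Treg10-, 3 in ILC210 against Treg10+, 4 in ILC2act against Treg10- and 1 for the difference of changes (*Tbx21*, set by the floor). With log2(FPKM + 0.1) they were 5 in ILC2IL-33 against ILC2PBS, 5 in ILC210 against Treg10+ and 0 for the difference of changes (limma, 3 at an unadjusted p under 0.05), which was 2 with log2(FPKM + 1). Without a filter they were 0 in ILC210 against ILC2act (limma, 3 unadjusted), 1 in Treg10+ against Treg10-, 1 in ILC210 against Treg10+ and 2 in ILC2act against Treg10-. With a mean of at least 5 FPKM, which removes members, they were 1 in ILC210 against ILC2act, 2 in ILC2act against Treg10- and 0 for the difference of changes (limma, 1 unadjusted). The per-gene equal-variance test on floored FPKM gave 1 in ILC2IL-33 against ILC2PBS, 0 in ILC210 against ILC2act (1 unadjusted), 0 in Treg10+ against Treg10- (4 unadjusted) and 1 in ILC210 against Treg10+. A fit of all 10 libraries gave 1 in Treg10+ against Treg10-. Against ILC2PBS replicate 3 alone, with replicates 1 and 2 left out, 0 passed (limma, 5 unadjusted).

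With 1 library left out the counts ranged from 1 to 4 in ILC2IL-33 against ILC2PBS, 1 to 3 in ILC210 against ILC2act, 0 to 0 in Treg10+ against Treg10- (limma, 3 or 4 unadjusted), 1 to 4 in ILC210 against Treg10+, 1 to 5 in ILC2act against Treg10- and 1 to 2 for the difference of changes. A group left with 1 library is assumed to vary like the other. With consecutive numbers as a replicate block, 3 members passed in ILC210 against ILC2act, and 3 for the difference of changes, with *Gzmb* (1.19, adjusted p = 0.00860) and *Prf1* (1.503, adjusted p = 0.00551) beside *Tbx21*. In Treg10+ against Treg10-, whose 2 pairs gave only 1 independent correlation (0.385), 3 passed, with *Gzma* added (limma adjusted p = 2.4e-06). The count over all genes was 434 in place of 148.

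Over all genes, 3300 passed in ILC2IL-33 against ILC2PBS, beside 2170 without a filter, 1881 at a mean of 5 FPKM, 444 by the equal-variance test, 1815 and 1927 without 1 IL-33 library and 1469 against ILC2PBS replicate 3 alone. In ILC210 against ILC2act 1190 passed, beside 685, 530 and 22 in the first 3 of these settings, and in ILC210 against Treg10+ 2375, beside 1453, 1389 and 547, with 1226 and 1329 without 1 Treg10+ library. In ILC2act against Treg10- 2056 passed, beside 1204 at a mean of 5 FPKM and 1191 by the equal-variance test, and for the difference of changes 1010, beside 621 without a filter and 433 at a mean of 5 FPKM. The 148 of Treg10+ against Treg10- became 231 with log2(FPKM + 1), 67 without a filter, 262 in the fit of 10 libraries and 0 by the equal-variance test or with 1 library left out.

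Equal library medians moved all genes by 0.18 in ILC2IL-33 against ILC2PBS and by -0.14 in ILC210 against ILC2act on the log2 scale. On making medians equal, 42.2% of the genes that passed in ILC2IL-33 against ILC2PBS were higher. Quantile normalization changed the share of higher genes among those that passed to 49.3% against 31.3% in ILC2IL-33 against ILC2PBS, 73.3% against 89.8% in ILC210 against ILC2act, 49.4% against 63.1% in ILC210 against Treg10+ and 67% against 80.7% for the difference of changes. No cause was tested. Groups of 2 or 3 libraries and the floor limit what could be detected for *Eomes*, *Ifng*, *Gzmk*, *Ncr1* and *Klrd1*.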
